A study of Mus musculus with 4 samples.

Results

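GM-CSF, IL-3 and the chains of their receptors were followed in RNA of mouse T helper 2 (Th2) cells with and without dopamine. The 6 genes are Csf2 (GM-CSF), Il3 (IL-3), Csf1 (M-CSF), Csf2ra, Csf2rb and Csf2rb2, chosen by name, and all 6 were among the 26207 genes of the deposited table. The data were 4 bulk RNA-seq libraries whose labels give spleen as the source and Th2 as the cell type, 2 with phosphate-buffered saline (PBS) and 2 with 10 µM dopamine. The sources used here give no strain, genotype, age, culture protocol or length of treatment, and do not tell separate animals or cultures from repeat preparations. The p-values thus reflect the spread among these 4 libraries alone, which may be technical. The libraries of each group are called A and B, letters that only name columns.

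GM-CSF and IL-3 are cytokines that activated helper T cells release and that act on myeloid cells, among them granulocytes, macrophages, basophils and mast cells. Each binds a private alpha chain, Csf2ra for GM-CSF, and then a shared signalling chain, the beta common chain encoded by Csf2rb, which also serves IL-5. Mice carry a second copy beside it, Csf2rb2, whose product serves the IL-3 receptor. The shared chain signals through the kinase JAK2 and the transcription factor STAT5. M-CSF, encoded by Csf1, acts on another kind of receptor, the tyrosine kinase Csf1r, and is a myeloid growth factor without a part in the beta common system.

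Csf2 carries AU-rich elements in the 3′ untranslated region of its mRNA, a kind of element known to mark cytokine mRNA for fast decay. The annotated region of Il3 holds 1 ATTTA. For both genes, the 30 bases with the most copies of ATTTA are shown, with every ATTTA in capitals. They were read from GENCODE M21 transcripts on mm10, on the minus strand of chromosome 11.
Csf2: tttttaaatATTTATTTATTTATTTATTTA
Il3: ctttatgccatcaaatgtcttatcaATTTA
The 3′ untranslated region of Csf2 is 317 bases long and holds 9 overlapping or separate copies of ATTTA and 5 of ATTTATTTA. The longer motif was found in 1.38% of the 1742 mouse 3′ untranslated regions of 0.8 to 1.25 times that length. The annotated transcript of Il3 has 101 bases there with 1 ATTTA and 0 of the longer motif. Of 670 regions of 0.8 to 1.25 times that length, 14.0% held ATTTA. The stretch shown for Il3 lies at bases 68 to 97, near the annotated end. Whether Il3 mRNA runs on past that end, with more copies, was not tested, so these counts do not show that Il3 lacks such elements. Csf1 has 4 ATTTA in 2111 bases and 0 of the longer motif, and the 3 receptor genes have 0 of either.

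The receptor genes Csf2rb and Csf2rb2 are near-identical copies, which bears on how reads can be divided between them. Their coding sequences of 2688 and 2634 bases were 95.2% identical over 2628 aligned bases, and the longest identical run was 242 bases. Of all 50-base windows of the transcripts, 18.9% of those of Csf2rb and 19.0% of those of Csf2rb2 occurred in the other one. A read that falls whole in such a window fits both genes. Such reads may have been left out of the counts or given to either copy. The levels of both copies may thus be too low, and the split of reads between them is uncertain. The 90 coding bases with the most differences, 16, are shown with the differing bases in capitals, from coding base 308 of Csf2rb and 311 of Csf2rb2.
Csf2rb: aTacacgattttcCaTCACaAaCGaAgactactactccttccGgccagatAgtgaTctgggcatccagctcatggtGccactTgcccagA
Csf2rb2: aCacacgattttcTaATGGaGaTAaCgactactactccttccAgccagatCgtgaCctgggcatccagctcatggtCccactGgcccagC
The copies lie on chromosome 15 of mm10 on opposite strands, Csf2rb2 from 78282507 to 78305721 (minus) and Csf2rb from 78325752 to 78353847 (plus), with 20030 bases between them.

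Values below are the authors' normalized counts, reads divided by a size factor for each library. The libraries held 5717408 to 14167357 reads assigned to genes, and PBS A was the shallowest, where 1 read is worth 1.70 normalized counts against 0.766 to 0.971 in the others. Each log2 fold change is the dopamine mean less the PBS mean of log2(value + 1), a scale that understates changes of low genes, with a standard error (SE) and limma's 2-sided adjusted p (Benjamini-Hochberg over all 26207 genes). A gene is called where that p is under 0.05. Limma's p-values rest mostly on the spread of genes of like level, to which it gave 42.4 prior degrees of freedom against 2 from the libraries. Markers of helper T cells were high in all 4 libraries, with Cd4 at 4236 to 4749. The Th2 lineage factor Gata3 was present at 207 to 243. The Th1 lineage factor Tbx21, named after its values were seen, was at 685 and 641 with PBS and rose to 1237 and 1360 with dopamine (log2 fold change 0.97, limma adjusted p = 2.76e-12). Per length of all exons, its RPKM was 26.9 with PBS and 47.3 with dopamine, above that of Gata3 in both groups.

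Across the 6 genes, the transcript of GM-CSF rose strongly with dopamine, that of its alpha chain rose less, and those of the beta chains Csf2rb and Csf2rb2 fell. The transcripts of IL-3 and M-CSF did not pass the test. Of the 6, 2 were called higher (Csf2 and Csf2ra), where 14.3% of all genes were, and 2 were called lower (Csf2rb and Csf2rb2), where 7.00% of all genes were. In either direction 21.3% of all genes were called. Of 4789 genes of a similar level (mean 20 to 200), 690 were higher and 540 lower, with a median log2 fold change of 0.07.

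**Figure D1:**
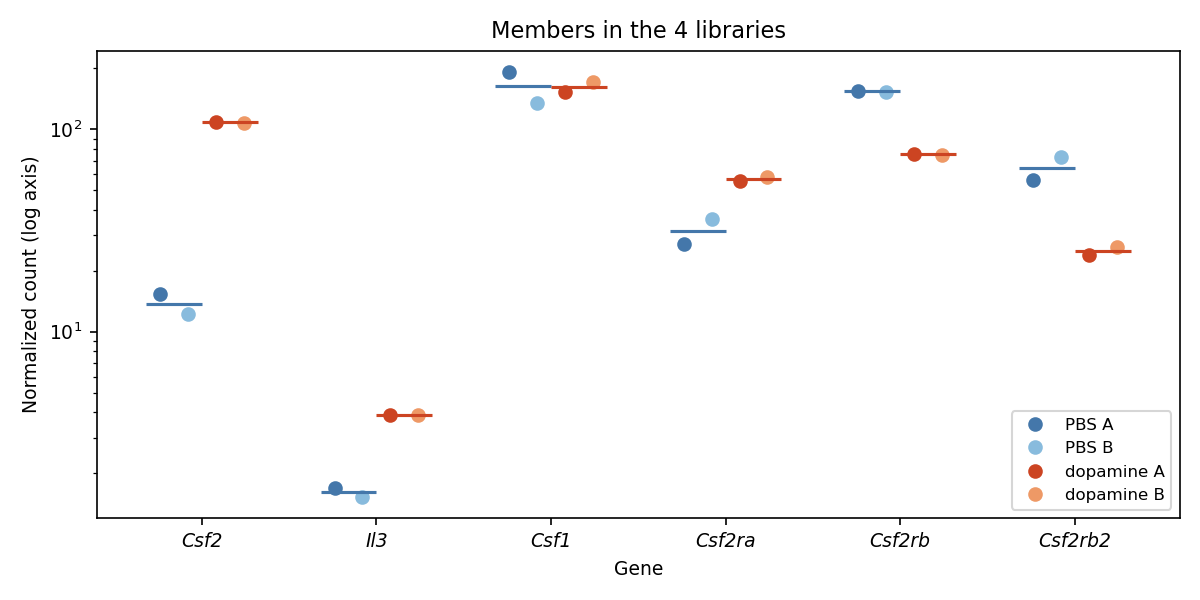
Normalized counts (log axis) of the 6 genes in each of the 4 libraries; each point is 1 library and each line the mean of a group of 2. Csf2 and Csf2ra sit higher in both dopamine libraries, Csf2rb and Csf2rb2 lower, and the Csf1 values of the groups overlap.

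Of the ligands, Csf2 showed the larger response. It lies on chromosome 11 from 54247271 to 54249667 on the minus strand. Its normalized count was 15.3 in PBS A and 12.3 in PBS B, from 9 and 16 reads, and 108.8 in dopamine A and 107.8 in dopamine B, from 141 and 111 reads. Both dopamine libraries lay far above both PBS libraries, and the libraries within a group were close. The mean went from 13.8 ± 2.14 to 108 ± 0.703 (SD, n = 2), a 7.86-fold ratio, and the log2 fold change was 2.89 (SE 0.26, 95% interval 2.38 to 3.41, limma adjusted p = 2.3e-12). That was the 12th largest rise among the called genes. Counting error alone gives a ratio of pooled reads of 8.21 with a 95% exact interval of 5.43 to 12.9, which does not hold the spread between libraries. In bulk RNA, more cells that make a transcript and more RNA per cell cannot be told apart.

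The call of Csf2 held in 15 of 16 other analyses, with log2 fold changes of 2.71 to 3.04. It ended without limma's mean-variance trend, where no gene of 26207 is called and 5551 have an unadjusted p under 0.05. In the authors' deposited table, Csf2 has a log2 fold change of 3.02, a standard error of 0.43 and an adjusted p of 1.37e-10. An annotated transcript on the other strand, Gm12223, overlaps Csf2 and has no row in the table. The library kit marks strand, but the strand setting of the counting is not given in the sources used here, and the reads of both may not have been told apart.

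Summed markers of B cells were higher beside the rise of Csf2, and single markers of other lymphocytes went both ways. The summed markers of B cells were 190 and 150 with PBS and 386 and 376 with dopamine, with 3 of 7 called higher and 0 lower. Those of CD8 T, natural killer and innate lymphoid cells were 477 and 401 with PBS and 659 and 654 with dopamine. Of these 12 markers 2 were called higher and 2 lower, with a median log2 fold change of -0.18. Among all genes 14.3% were called higher and 7.00% lower. The part of these cells in the Csf2 result was not tested.

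Il3 lies 15635 bases from Csf2, from 54265303 to 54267277 on the same strand, and was close to absent. It had 1 and 2 reads in the PBS libraries and 5 and 4 reads in the dopamine libraries. In normalized counts these are 1.70 and 1.53 against 3.86 and 3.88. Both dopamine values were above both PBS values, but the log2 fold change of 0.90 had an SE of 0.78 and an interval from -0.67 to 2.46 (limma adjusted p = 0.45). The pooled 9 reads against 3 give a ratio of 2.44 after scaling for depth, with a 95% exact interval of 0.610 to 14.0. A difference was not detectable at this depth, and a rise as large as that of Csf2 lies inside that counting interval. None of the 11 other analyses that gave Il3 a value called it, and 10 of them gave it an adjusted p. DESeq2 gave none, and the authors' deposited table has none for Il3 either.

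Csf1 did not show the rise seen for Csf2. It lies on chromosome 3 from 107741048 to 107760469 on the minus strand. Its normalized counts were 192 in PBS A, 135 in PBS B, 154 in dopamine A and 172 in dopamine B, from 113 to 199 reads. The PBS libraries were the highest and the lowest of the 4, so the groups overlap. The log2 fold change was 0.01 (95% interval -0.29 to 0.32, limma adjusted p = 0.961), and its sign turned with the scaling, down to -0.18 when libraries were rescaled on abundant genes (mean of 100 or more). The interval leaves out a change of the size seen for Csf2 or for either beta chain.

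**Figure D2:**
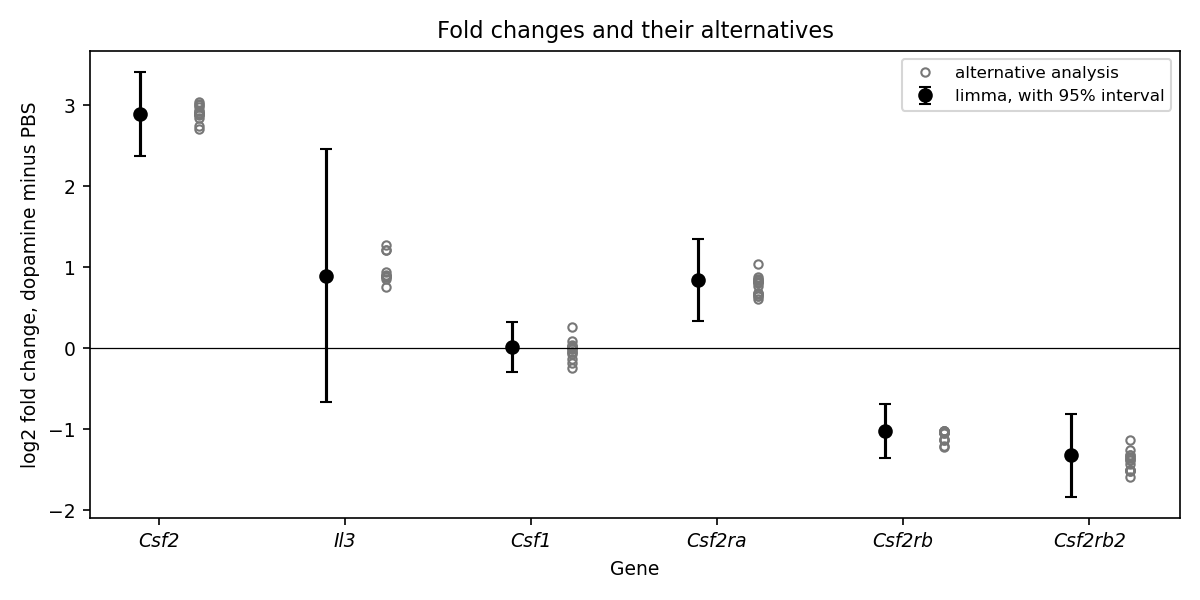
Log2 fold change (dopamine minus PBS) of the 6 genes: black points with 95% intervals are limma's values, open circles the values of the other analyses. The circles of Csf2 stay between 2.71 and 3.04, those of Csf2rb between -1.22 and -1.02, and those of Csf1 lie on both sides of 0.

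Of the receptor chains, the alpha chain and the beta chains moved in opposite directions. Csf2ra, the chain that gives the receptor its binding of GM-CSF, lies on chromosome 19 from 61223957 to 61228429 on the minus strand. Its normalized counts were 27.2 and 36.0 with PBS and 55.5 and 58.3 with dopamine, from 16, 47, 72 and 60 reads. Both dopamine libraries were higher than both PBS libraries. The mean went from 31.6 ± 6.24 to 56.9 ± 1.92 (SD, n = 2), with a log2 fold change of 0.84 (SE 0.25, 95% interval 0.34 to 1.34, limma adjusted p = 0.0109).

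The call of Csf2ra was the least firm of the 4. It held in 8 of 15 other analyses. It ended with upper-quartile scaling in edgeR (log2 fold change 0.61, adjusted p = 0.0672), with rescaling on abundant genes in limma (0.65, adjusted p = 0.0567), in DESeq2 (0.82, adjusted p = 0.151) and without the trend. It also ended without PBS A (0.65, adjusted p = 0.129 by limma), without dopamine A (0.88, adjusted p = 0.064) and without dopamine B (0.81, adjusted p = 0.119). The authors' deposited table gives it an adjusted p of 0.151. The log2 fold change was above 0 in all 15, between 0.61 and 1.04.

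Csf2rb encodes the beta common chain, the signalling part of the receptors for GM-CSF, IL-3 and IL-5. Its normalized counts were 154.6 and 153.2 with PBS and 75.6 and 74.8 with dopamine, from 91, 200, 98 and 77 reads. Within each group the libraries were nearly equal, closer than counting error on so few reads would give, so their SDs understate the uncertainty. The dopamine libraries lay at about the same distance below. Counting error alone gives a ratio of pooled reads, PBS over dopamine, of 2.04 with a 95% exact interval of 1.69 to 2.48. The mean went from 154 ± 0.954 to 75.2 ± 0.591 (SD, n = 2), 2.05-fold lower, and the log2 fold change was -1.02 (SE 0.17, 95% interval -1.36 to -0.69, limma adjusted p = 4.41e-06). Of 16 other analyses 15 called it, with log2 fold changes of -1.22 to -1.02, and the exception was limma without the trend. The authors' deposited table has an adjusted p of 7.19e-04.

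Csf2rb2, the second beta chain, fell too. Its normalized counts were 56.1 and 72.8 with PBS and 23.9 and 26.2 with dopamine, from 33, 95, 31 and 27 reads. The dopamine libraries were both lower than both PBS libraries. The mean went from 64.4 ± 11.8 to 25.1 ± 1.63 (SD, n = 2), and the log2 fold change was -1.32 (SE 0.25, 95% interval -1.83 to -0.80, limma adjusted p = 8.38e-05). It was called in 14 of 15 other analyses, all but limma without the trend, and the authors' deposited table has an adjusted p of 0.0069.

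Since the copies share sequence, the share of reads given to each was set side by side. Csf2rb2 took 26.6% of the reads of both genes in PBS A (95% exact interval 19.1 to 35.3), 32.2% in PBS B (26.9 to 37.9), 24.0% in dopamine A (16.9 to 32.3) and 26.0% in dopamine B (17.9 to 35.5). The intervals cover counting error only, and each overlaps all the others. The mean share was 29.4% ± 3.95 with PBS and 25.0% ± 1.37 with dopamine (SD, n = 2, exact 2-sided permutation p = 0.333, the smallest that 2 against 2 libraries can give). With 2 libraries a group, this test could not have shown a different fall of the copies.

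Markers of several myeloid cell types, which are known to carry beta common receptors, were lower beside the fall of both beta chains. Of 10 basophil and mast cell markers 9 were called lower and 0 higher, and their median log2 fold change was -1.63. Among all genes 7.00% were called lower and 14.3% higher, with a median of -0.08. Their summed normalized count was 2648 and 2259 with PBS and 899 and 827 with dopamine, and none of them was at 0 in any library. The basophil protease Mcpt8 was at 584 and 506 with PBS and 113 and 131 with dopamine. Of 10 neutrophil and eosinophil markers 5 were called lower and 0 higher, with sums of 454 and 406 against 130 and 116. Of 12 monocyte and macrophage markers 5 were lower and 1 higher, with sums of 408 and 405 against 315 and 336. Of these lists, S100a8, S100a9, Ltf, Fcgr1 and C1qb were at 0 in 1 dopamine library each and Ly6g in 1 library of each group. Dendritic cell markers went both ways, with 2 of 10 higher and 2 lower, a median of 0.33 and sums of 1621 and 1817 against 1381 and 1423, and Siglech and Cd209a were at 0 in PBS A. Outside the myeloid cells, 4 of 8 fibroblast and endothelium markers were lower and 0 higher, with a median of -1.10 and sums of 2042 and 2151 against 1869 and 1991. The part of these cells in the fall of Csf2rb and Csf2rb2 was not tested. These counts of lower calls depended on single libraries and on the tool. Of the basophil and mast cell markers 6 were lower in DESeq2, and 6 to 9 when each library was left out, with 6 without PBS B. Of the neutrophil and eosinophil markers 2 were lower in DESeq2, 1 without PBS A, 2 without dopamine B, and 3 without PBS B or without dopamine A. Of the monocyte and macrophage markers 2 were lower in DESeq2, 2 without PBS B, and 3 without PBS A or without dopamine B. Of the fibroblast and endothelium markers 0 were lower in DESeq2 and without PBS A, and 2 without any other library.

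**Figure D3:**
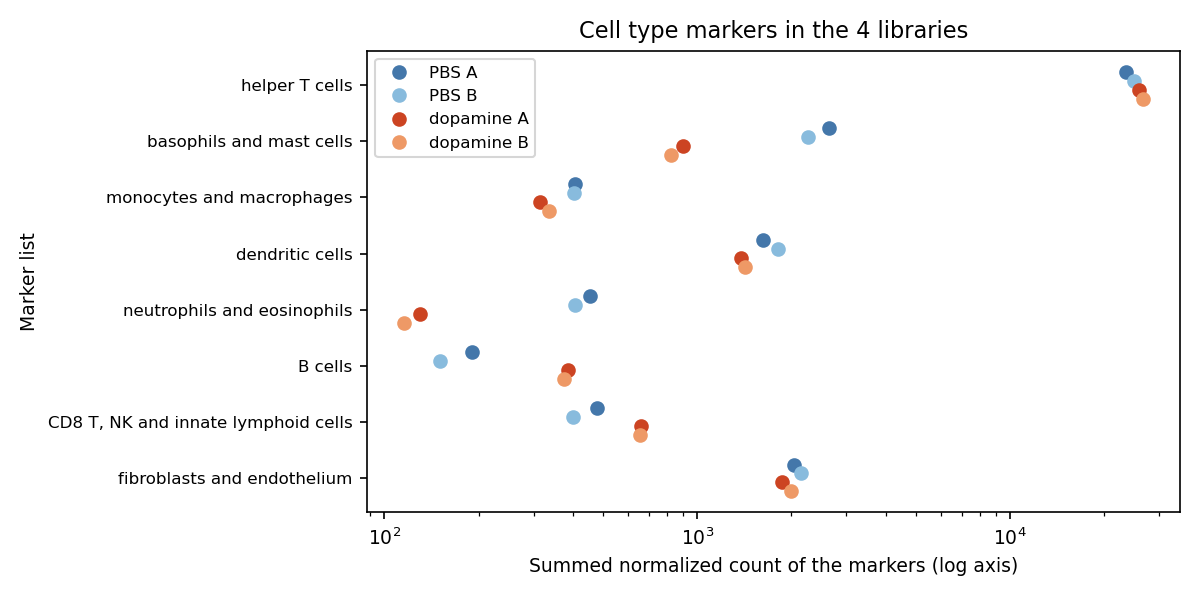
Summed normalized count (log axis) of each list of cell type markers, 1 point per library. The sums of basophil and mast cell markers are 2259 to 2648 with PBS and 827 to 899 with dopamine, and those of helper T cells lie between 23427 and 26597 in all 4 libraries.

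Levels of different genes were compared per length, as reads per kilobase of the coding transcript and per total of assigned reads (RPKM). With PBS the order was Csf1 at 3.96 ± 1.10, Csf2rb at 3.26 ± 0.121, Csf2 at 1.74 ± 0.323, Csf2ra at 1.72 ± 0.287, Csf2rb2 at 1.37 ± 0.209 and Il3 at 0.259 ± 0.0268 (SD, n = 2). Csf1 and Csf2rb overlapped, as did Csf2, Csf2ra and Csf2rb2, so their order within these groups is not beyond the spread. With dopamine Csf2 stood first at 12.3 ± 0.26, followed by Csf1 at 3.53 ± 0.23, Csf2ra at 2.79 ± 0.0531 and Csf2rb at 1.43 ± 0.0322, and last came Il3 at 0.557 ± 0.00546 and Csf2rb2 at 0.479 ± 0.0241. No 2 neighbours of that order overlapped, but Il3 rests on 5 and 4 reads and on an annotated length of 629 bases, which may be too short. When the length of all annotated exons was used instead, Csf2rb was 2.13 and 0.936 and Csf2ra was 1.11 and 1.79 with PBS and with dopamine, so that with PBS Csf2rb2 came before Csf2ra.

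The order of the alpha and beta chain transcripts differed between the groups. The ratio of Csf2rb to Csf2ra per length was 2.21 in PBS A, 1.65 in PBS B, 0.528 in dopamine A and 0.498 in dopamine B. Csf2rb was thus the more abundant of the 2 in both PBS libraries and the less abundant in both dopamine libraries. The mean ratio went from 1.93 ± 0.393 to 0.513 ± 0.0213 (SD, n = 2, exact 2-sided permutation p = 0.333, the smallest that this design allows). With the length of all exons the ratios were 2.24, 1.68, 0.537 and 0.506. Reads that fit both beta chains may be missing from Csf2rb, so the ratios may be too low in all 4 libraries.

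**Figure D4:**
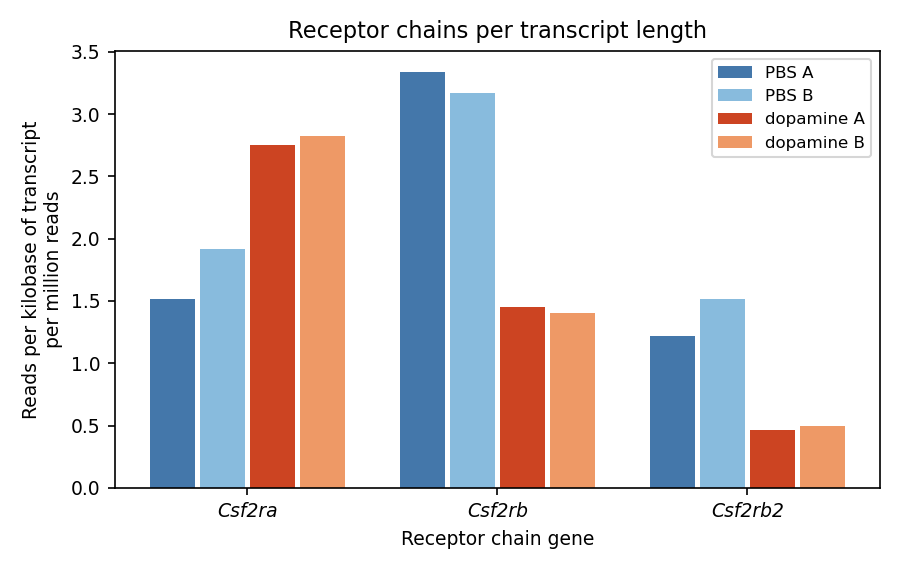
RPKM over the coding transcript of the 3 receptor chain genes, 1 bar per library. Csf2rb exceeds Csf2ra in both PBS libraries and lies below it in both dopamine libraries.

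Ligands and receptors next to these in function were mostly low. Of 7 such genes 1 was called higher and 0 lower, with a median log2 fold change of 0.07. Of all genes 14.3% were called higher and 7.00% lower. Il5, the ligand of the remaining beta common receptor, had normalized counts of 22.1 and 13.02 with PBS and 49.4 and 51.5 with dopamine, with both dopamine libraries higher (log2 fold change 1.51, SE 0.30, limma adjusted p = 1.14e-04). Il3ra, the alpha chain of the IL-3 receptor, was 44.2 and 43.7 against 57.9 and 62.1. Its dopamine values were both higher, but the change of 0.44 did not pass the test (95% interval -0.01 to 0.89, limma adjusted p = 0.169). Il5ra, the alpha chain for IL-5, was 20.4 and 13.8 against 17.0 and 18.4, and its groups overlapped. Csf1r, the receptor of M-CSF, was 11.9 and 25.3 against 8.49 and 14.6, also overlapping. Csf3r, the receptor of G-CSF, was 18.7 and 6.13 against 3.86 and 2.91 (log2 fold change -1.44, limma adjusted p = 0.0767), and passed without PBS B, at -2.17. The ligands Csf3 and Il34, which encode G-CSF and the other ligand of Csf1r, had values of 0 to 6.90.

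The relay below the beta common chain was expressed throughout, and its genes went both ways. Of 28 genes 8 were called higher and 5 lower, with a median log2 fold change of 0.10, where abundant genes, those whose mean is 100 or more, were called higher in 39.1% and lower in 7.90% of cases and had a median of 0.20. The split turned with the scaling: 4 were higher and 8 lower with edgeR's TMM, and 1 higher and 11 lower both with upper-quartile scaling in edgeR and with rescaling on abundant genes. Without PBS A 3 were higher and 4 lower, without PBS B 5 were higher, and without dopamine B 2 were higher and 4 lower. Hras, a small GTPase of the MAP kinase branch, went from 270 and 326 to 431 and 516 (log2 fold change 0.67, limma adjusted p = 1.36e-05). Gab2, a docking protein, went from 121 and 113 to 50.9 and 66.0 (adjusted p = 5.79e-05), and the kinase gene Fes from 76.4 and 64.4 to 36.3 and 29.1 (-1.09, adjusted p = 4.32e-04). Jak2 had log2 fold changes of 0.07 by limma and -0.12 with upper-quartile scaling, and Stat5a had 0.15 and -0.04. Stat5b was at -0.14 by limma (adjusted p = 0.182) and passed as lower in edgeR with TMM, at -0.26 (adjusted p = 0.00372).

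Genes listed as targets of JAK2 and STAT5 signalling were mostly called higher. Of 20 genes 12 were called higher and 1 lower, with a median log2 fold change of 0.54, beside 39.1% higher, 7.90% lower and a median of 0.20 among abundant genes. The counts were 11 and 3 with upper-quartile scaling and with rescaling on abundant genes, and 2 were lower without PBS A or without dopamine B. Cish, a feedback inhibitor that STAT5 induces, was 464 and 467 with PBS and 912 and 933 with dopamine (log2 fold change 0.99, limma adjusted p = 1.15e-11). Id2, a transcriptional regulator, was 822 and 963 against 1752 and 1767 (0.98, adjusted p = 4.53e-13). Bcl2, a survival gene, was the 1 called lower, from 2548 and 2700.0 to 1610.0 and 1645 (-0.69, adjusted p = 1.94e-10). STAT5 also acts below IL-2 and IL-7 receptors, so these genes do not belong to GM-CSF alone. The list was written from general knowledge. Whether STAT5 acted on its genes here, Egr1, Fos and Dusp5 included, was not tested.

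Among 31 transcription factors known to act at Csf2 and Il3, 12 were called higher and 3 lower, with a median of 0.15. The share called higher is close to the 39.1% of abundant genes, whose median was 0.20. With upper-quartile scaling 11 were higher and 8 lower, and with rescaling on abundant genes 11 and 7. Irf4, induced by T cell receptor signals, was 7520 and 7721 with PBS and 13931 and 15265 with dopamine (log2 fold change 0.94, limma adjusted p = 7.08e-18). Junb, an AP-1 subunit, was 695 and 677 against 1560 and 1689 (1.24, adjusted p = 2.81e-16), and the NF-kB gene Nfkb2 was 736 and 835 against 1721 and 1794 (1.16, adjusted p = 2.04e-15).

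Genes for the decay or protection of AU-rich cytokine mRNA, the class of mRNA shown above for Csf2, were called higher in 6 of 15 cases and lower in 0, with a median of 0.25. That share is close to the 39.1% of abundant genes, whose median was 0.20. These counts moved with the scaling, to 3 and 2 with upper-quartile scaling and 2 and 2 with rescaling on abundant genes, and without 1 library to 2 (PBS A or PBS B) or 3 (dopamine A or dopamine B) higher and 0 lower. Zc3h12d, an RNase of the Regnase family, was 912 and 978 with PBS and 1561 and 1608 with dopamine (log2 fold change 0.75, limma adjusted p = 4.65e-10). Zc3h12a, encoding Regnase-1, was 54.4 and 46.0 against 86.4 and 84.5 (0.76, adjusted p = 0.00463), but it did not pass in DESeq2 or without PBS B, dopamine A or dopamine B. Elavl1, encoding the stabilising protein HuR, changed by 0.37 (adjusted p = 4.96e-04), and its call ended without PBS A (0.30) and with rescaling on abundant genes (0.17).

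Receptors whose signals are known to induce Csf2 in T cells divided evenly. Of 15, 6 were called higher and 6 lower, with a median of -0.01, beside 39.1% higher and 7.90% lower among abundant genes. Apart from Icos, the genes called lower had means of 8.19 to 46.5. The shares called higher and lower were 14.4% and 11.3% at a mean of 20 to 200, and 0.644% and 5.28% under 20. Il12rb1, which encodes part of the IL-12 receptor, was 272 and 319 with PBS and 973 and 1069 with dopamine (log2 fold change 1.79, limma adjusted p = 8.62e-19), and Il7r, the IL-7 receptor chain, was 143 and 103 against 353 and 404 (1.63, adjusted p = 8.92e-13). Icos, a costimulatory receptor, was 693 and 814 against 292 and 297 (-1.35, adjusted p = 3.21e-14). The number called lower was 2 in DESeq2, 3 without PBS B, 4 without PBS A or without dopamine B, and 1 of 10 among genes of at least 5 CPM.

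**Figure D5:**
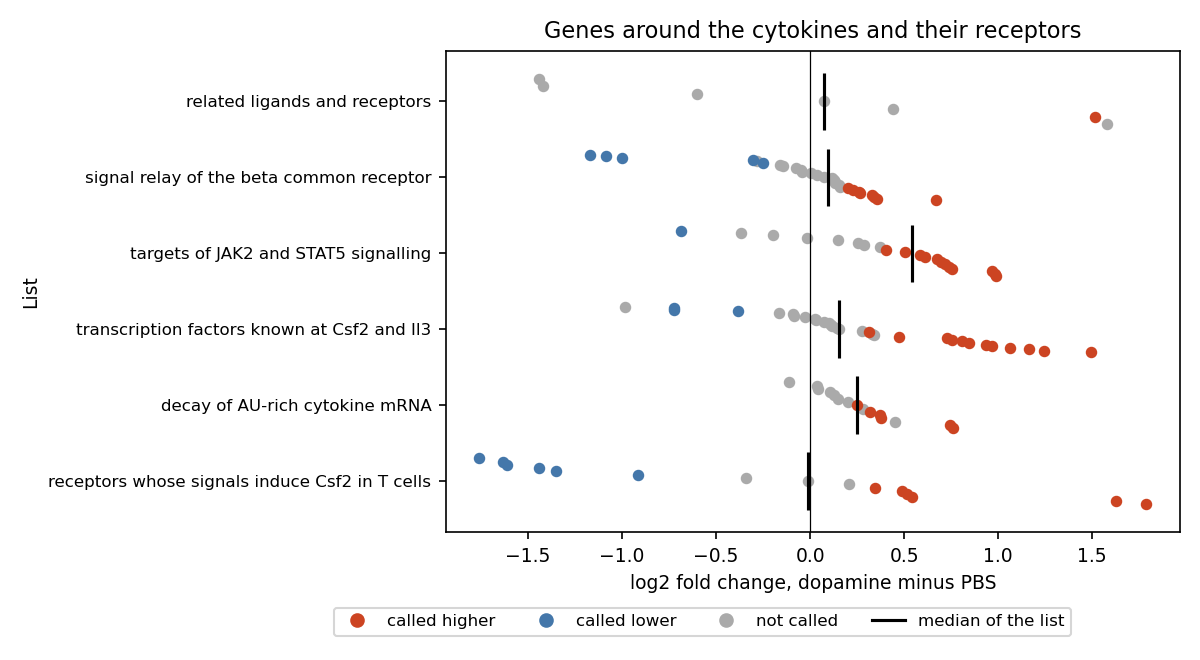
Log2 fold change (dopamine minus PBS) of each gene of the 6 lists around these cytokines, 1 point per gene, coloured by limma's call, with the median of each list as a vertical line. Genes listed as targets of JAK2 and STAT5 have a median of 0.54, and the receptors that induce Csf2 spread to both sides of 0.

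Next to the cytokine pair, the nearest genes with values were not called higher. On one side P4ha2, a collagen prolyl hydroxylase, was 39.1 and 27.6 with PBS and 6.94 and 11.7 with dopamine (log2 fold change -1.76, limma adjusted p = 3.67e-04), and without PBS A it did not pass (-1.51, adjusted p = 0.0589). On the other side Acsl6, an acyl-CoA synthetase, changed by -0.75 (adjusted p = 0.273). Within 500 kb of Csf2 and Il3, 16 other genes had values, of which 1 was called higher (Irf1, log2 fold change 0.20) and 4 lower. Over the whole set of genes these shares were 14.3% higher and 7.00% lower. Il5, called higher with a log2 fold change of 1.51, lies on the same chromosome from 53720794 to 53725106, just outside that window. Beside the beta chains, Ncf4, a subunit of the phagocyte oxidase 19926 bases from Csf2rb2, rose from 136 and 160 to 237 and 275 (0.79, limma adjusted p = 1.76e-05), against the direction of both beta chains. Tex33 on the far side had 1 to 7 reads a library. Beside Csf1, Ahcyl1 changed by 0.16 (adjusted p = 0.141) and Gm36211 had 0 to 5 reads, and beside Csf2ra, Gm6020 had 0 to 6 reads.

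The genes with the most similar profile over the 4 libraries were found among 10455 genes by the Euclidean distance of centred log2(value + 1) values, as a description. For Csf2 they were Gja1, a gap junction gene (distance 0.19, from 109 and 91.9 to 649 and 676), and the chemokine genes Ccl3 (0.31) and Ccl4 (0.43). For Csf2rb they were Aqp9 (0.05, from 116 and 113 to 57.9 and 55.3), Matk (0.06) and Tespa1 (0.06). For Csf1 they were Zxdb, Lmna and Gnal, and for Il3, whose profile rests on 12 reads, Anxa7, Hsph1 and Golm1.

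Sequence before the start sites was taken from the RefSeq promoter table (GRCm38.p6), which held 5 of the 6 genes. Csf2rb had no entry. In the 250 bases before each start, 6 motifs were searched on both strands. These were TGANTCA, the site of AP-1, and GGAAA, the core that NFAT binds. The cyclic AMP response element (CRE) was searched as TGACGTCA. For STAT factors the search used TTCNNNGAA. GATA factors were given AGATAA, and the TATA box was taken as TATAAA. Among 32851 promoters they occurred, in that order, in 6.75%, 55.6%, 1.55%, 7.02%, 9.99% and 12.4%. The Csf2 window held 2 NFAT and 1 GATA match, that of Il3 1 and 1, and that of Csf1 3 NFAT matches. The RefSeq start of Csf2 lies 232 bases upstream of the GENCODE start, so its window misses the bases just before the latter. Csf2ra, the chain that rose, held 1 CRE and 1 NFAT match, and Csf2rb2, which fell, 1 STAT match. These windows are shown with the CRE and the STAT match in capitals, on the minus strand, for the 2 receptor chains of opposite direction that have an entry. That of Csf2ra is chr19:61228430-61228668, without the bases inside its annotated first exon, and that of Csf2rb2 is chr15:78305722-78305971.
Csf2ra: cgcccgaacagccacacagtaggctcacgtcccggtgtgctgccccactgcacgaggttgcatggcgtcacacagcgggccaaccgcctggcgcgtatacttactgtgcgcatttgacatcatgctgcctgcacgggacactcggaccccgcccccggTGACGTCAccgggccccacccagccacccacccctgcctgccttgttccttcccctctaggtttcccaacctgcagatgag
Csf2rb2: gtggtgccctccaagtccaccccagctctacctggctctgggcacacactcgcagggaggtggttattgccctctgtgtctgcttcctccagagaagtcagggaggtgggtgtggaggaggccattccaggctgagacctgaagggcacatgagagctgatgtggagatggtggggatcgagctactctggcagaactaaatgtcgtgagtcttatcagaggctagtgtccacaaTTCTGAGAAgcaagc
A match is a description of the letters and not a shown binding site.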

How the data were processed

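RNA-seq libraries were made with a stranded mRNA kit, per the labels' protocols. FastQC 0.11.2, TopHat2 2.0.13, HTSeq 0.6, DESeq2, R 3.6.2 and the mm10 build were used, per the submitters' processing notes. Neither the annotation nor the strand setting is given in the sources used here. Per the file headers, the deposited table holds the authors' DESeq2 log2 fold changes with their log2 standard errors, a Wald score and p-values, raw and adjusted. The 4 columns of libraries are a signal which the authors made by dividing read counts by a size factor per library. All values came out as whole reads (100% within 0.01), and 0 columns belonged to other samples. Columns carry the numbers 2 and 3 where titles have replicates 1 and 2, so each was matched to its group only. The lowest total of a gene was 8 reads, and 26 names read as dates.

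The test was limma 3.58.1 (R 4.3.3) on log2(value + 1) with a mean-variance trend and no filter, 2-sided, Benjamini-Hochberg at 0.05. It was also run on simulated data with few changed genes, as many up as down and none as low as Il3. That setting differs from these data, so it does not check calls at low levels or with this many changed genes. On the recovered reads, the quasi-likelihood test of edgeR 4.0.16 with TMM and filterByExpr called 5219 of 15329 genes. DESeq2 1.42.0 was run on them too. Other alternatives were upper-quartile scaling and size factors of DESeq2 in edgeR, no filter, limma-voom, a pseudocount of 0.1, genes of at least 5 CPM, TMM scaling or rescaling on abundant genes (mean of 100 or more) in limma, no trend, and leaving out each library. Locations, lengths and transcripts are from GENCODE M21 on mm10, where 24693 symbols had 1 location. Intervals of reads and shares are exact and cover counting error only.

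The members, lists and named genes were chosen with earlier results of these data known, so no list is independent evidence. Named genes are the 6 members, their related ligands, receptors, Jak2, Stat5a, Stat5b and Cish whatever their p, the 3 smallest p of each other list, the nearest genes with values, and the 3 genes of most similar profile with a mean of at least 20, without predicted genes and antigen receptor segments. The lists were written from general knowledge.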

Additional observations from a re-analysis of the deposited data

How the results depend on the processing

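Csf2, Csf2rb and Csf2rb2 kept their direction in every alternative that tested them, and lost their calls only without limma's mean-variance trend, where 0 of the 6 genes were higher and 0 lower (0 of 26207 genes in all, with 5551 at an unadjusted p under 0.05). The number of the 6 genes called higher was 1 in place of 2 with upper-quartile scaling in edgeR, in DESeq2, with rescaling on abundant genes (mean of 100 or more), and among genes of at least 5 CPM, and 1 to 2 when each library was left out. The number called lower was 1 among genes of at least 5 CPM, a filter that leaves Il3, Csf2ra and Csf2rb2 untested. All genes called numbered 3261 in DESeq2, and 2914 (without PBS A) to 4299 when each library was left out, with 3276 without dopamine B. Csf1 turned to -0.044 with edgeR's TMM, -0.044 with DESeq2 size factors, -0.13 with upper-quartile scaling, -2.8e-04 with limma-voom, -0.0059 with TMM in limma and -0.18 with rescaling on abundant genes, and ranged from -0.24 to 0.27 over the libraries left out. The cause was not tested. With upper-quartile scaling and with rescaling on abundant genes, Ahcyl1 turned to -0.024 and -0.035, Il5ra to -0.052 and -0.11, Jak2 to -0.12 and -0.12, and Stat5a to -0.036 and -0.041. Jak2 was also -0.033 with TMM, -0.032 with DESeq2 size factors and -0.037 with limma-voom. Leaving out libraries moved Gm6020 from -0.90 to 2.06 and Il5ra from -0.19 to 0.34. None of these genes was called in the first place. The rescaling on abundant genes moved log2 fold changes by -0.19. For the 32 other named genes, 427 of 476 values kept direction and call.

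The columns share the numbers 2 and 3 across groups, and the deviations of same-numbered libraries had a correlation across 11611 genes of 0.13, from 1 free deviation per group. No label says that a number marks a shared animal or day, so the libraries share only a number. With the number as a replicate block 6999 genes were called, against 5577, and 2 of the 6 genes were higher and 2 lower.

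Depth limits Il3, with 12 reads in all, and in PBS A also Csf2 and Csf2ra, with 9 and 16 reads.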
